A study of Drosophila melanogaster with 30 samples.

Results

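Jon66Ci, Jon66Cii, Jon99Ci, Jon99Cii, Jon99Ciii, Jon99Fi and Jon99Fii are 7 Jonah protease genes of Drosophila melanogaster, taken by name from the 17488 genes in each table of expression values. Jonah genes encode chymotrypsin-like serine endopeptidases. Enterocytes, the absorptive cells of the midgut, secrete such enzymes into the lumen, where they cut food proteins. The genes lie in small clusters named after bands of the polytene chromosomes, and members of a cluster are close copies, so reads can fall on more than one of them. The sources used here do not state how such reads were counted, and every value of a single member is uncertain to that extent, which is why sums over each cluster are given as well.

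The pair Jon66Ci (FBgn0035886) and Jon66Cii (FBgn0035887) lies on chromosome arm 3L, at 8391540 to 8392377 on the plus strand and 8392820 to 8393649 on the minus strand in dm6, with 442 bases between them. The triplet lies on arm 3R. Jon99Ciii (FBgn0003357) runs from 29922216 to 29923455 on the plus strand, Jon99Cii (FBgn0003356) from 29923754 to 29924615 on the minus strand, and Jon99Ci (FBgn0003358) from 29925226 to 29926189 on the minus strand, with gaps of 298 and 610 bases. The pair Jon99Fii (FBgn0039777, 30487016 to 30487928, minus strand) and Jon99Fi (FBgn0039778, 30488963 to 30489895, plus strand) lies further along the same arm, 1034 bases apart and 560826 bases from Jon99Ci. In the Ensembl annotation 5 members have 1 exon and no intron, Jon99Ci has 2 exons, Jon99Ciii has 2 transcripts, no other gene overlaps any of the 7, and the coding lengths run from 780 to 816 bases.

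Poly(A) RNA was taken from 2 midgut regions, anterior and posterior, of mated females aged 10 to 12 days that were kept with males, with 30 to 50 dissected regions pooled per library. Wild-type flies (y[1]w[1]) ate a control diet, a lipid-depleted diet or a diet with 0.2% cholesterol, 4 times the control, from before they emerged from the pupa. The strains TI{TI}Hr96[1] and Hr96[2x], named for Hr96, a nuclear receptor that responds to cholesterol, were kept on the control diet. The labels do not say how the strains' genetic background relates to y[1]w[1], so background and Hr96 allele cannot be told apart. Each of the 10 groups of region and condition has 3 libraries, 30 in all. Whether replicates were raised as separate cultures is not stated. The p-values therefore cover the spread among the libraries, part of which may be technical.

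Values are FPKM, fragments scaled by transcript length and by the number of mapped fragments, divided here by 1 scaling factor per library. FPKM is corrected for length, so levels can be compared between genes. A difference is one in log2(scaled FPKM + 1), which understates changes of low genes, and is called at an adjusted p under 0.05 by limma. A lack of overlap between groups is given as a description only. For 3 libraries against 3 the smallest exact permutation p is 0.1, and the share of all genes without overlap was not counted. The files hold no read counts. Relative depth, worked out from the deposited confidence limits of low values, ran from 0.777 to 1.37. It is approximate, since 47.8% of the fragment numbers under 10 implied by those limits lay within 0.02 of a whole number. For members at a scaled FPKM of 10 or more the limits lay 0.643% to 20.4% from the value. Counting error at such levels was small beside the differences below. For values under 1 the limits lay up to 200.0% away.

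Libraries carried their labels in most respects. Of 5 enterocyte markers (mex1, Myo31DF, nub, GATAe and Myo61F) the summed level was 1241 to 2326 in all 30 libraries. The posterior marker cad, which encodes the transcription factor Caudal, was at 23.8 to 59.7 in posterior libraries. In anterior libraries it was at or under 0.275 in 11 of 15, at 3.84 and 3.35 in lipid-depleted replicates 2 and 3, at 1.35 in Hr96[2x] replicate 1 and at 10.9 in Hr96[1] replicate 1. The second gene of that list, exex, was higher in the anterior, at 31.2 to 79.7 against 9.5 to 28.7. Markers of other tissues were high in control replicate 1. Summed fat body markers were at 1609.9 there in the anterior (196 and 156 in replicates 2 and 3) and at 1892 in the posterior (101 and 158). Summed ovary markers were at 8.02 (0.689 and 1.01) and 7.02 (0.679 and 1.15). Their part in the comparisons with control was not tested. Hr96 itself was at 27.9 to 42.1 in the 6 Hr96[1] libraries, below all 6 wild-type libraries on the control diet (43.4 to 67.9), and at 63.7 to 80.3 in Hr96[2x]. Wild type reached higher on the other diets, at 96.1 to 179 without lipids and 68.9 to 172 with high cholesterol. Against control, limma called Hr96 lower in the posterior of Hr96[1] (adjusted p = 0.0173) but not in its anterior (0.112). Hr96[2x] was called in neither region (0.283 and 0.669). In anterior Hr96[2x] replicate 2, Jon99Cii and Jon99Ciii carry a failed estimate and are listed at 0, so the main fit tests the other 5 members, and these 2 come from a fit in which that value is missing (n = 2 in that group).

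On the control diet the Jon99C and Jon99F genes split by region, and neither Jon66C gene was called. The Jon99F pair was expressed in the posterior midgut, far above its anterior levels in wild type, while the Jon99C triplet was higher in the anterior midgut on the control diet. Posterior minus anterior on the control diet, 2 of the 5 tested members rose (Jon99Fi and Jon99Fii) and 1 fell (Jon99Ci), where 14.7% of all tested genes were called, and both genes of the second fit (Jon99Cii and Jon99Ciii) fell, where 14.9% were. On the lipid-depleted diet 2 of 5 rose and none fell (12.3% of all genes called), and with high cholesterol 2 rose and 2 fell (17.4%). In Hr96[1] 3 rose and 1 fell of 5 (14.0%), and both others fell (14.3% in the fit with the missing value). In Hr96[2x] all 5 were called, 4 higher and 1 lower in the posterior (18.9%). The median difference of the 7 was -0.77 on the control diet, 0.24, -1.19, 0.42 and 2.56 in the other conditions in that order, beside medians of -0.01 to 0.01 over all tested genes.

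**Figure D1:**
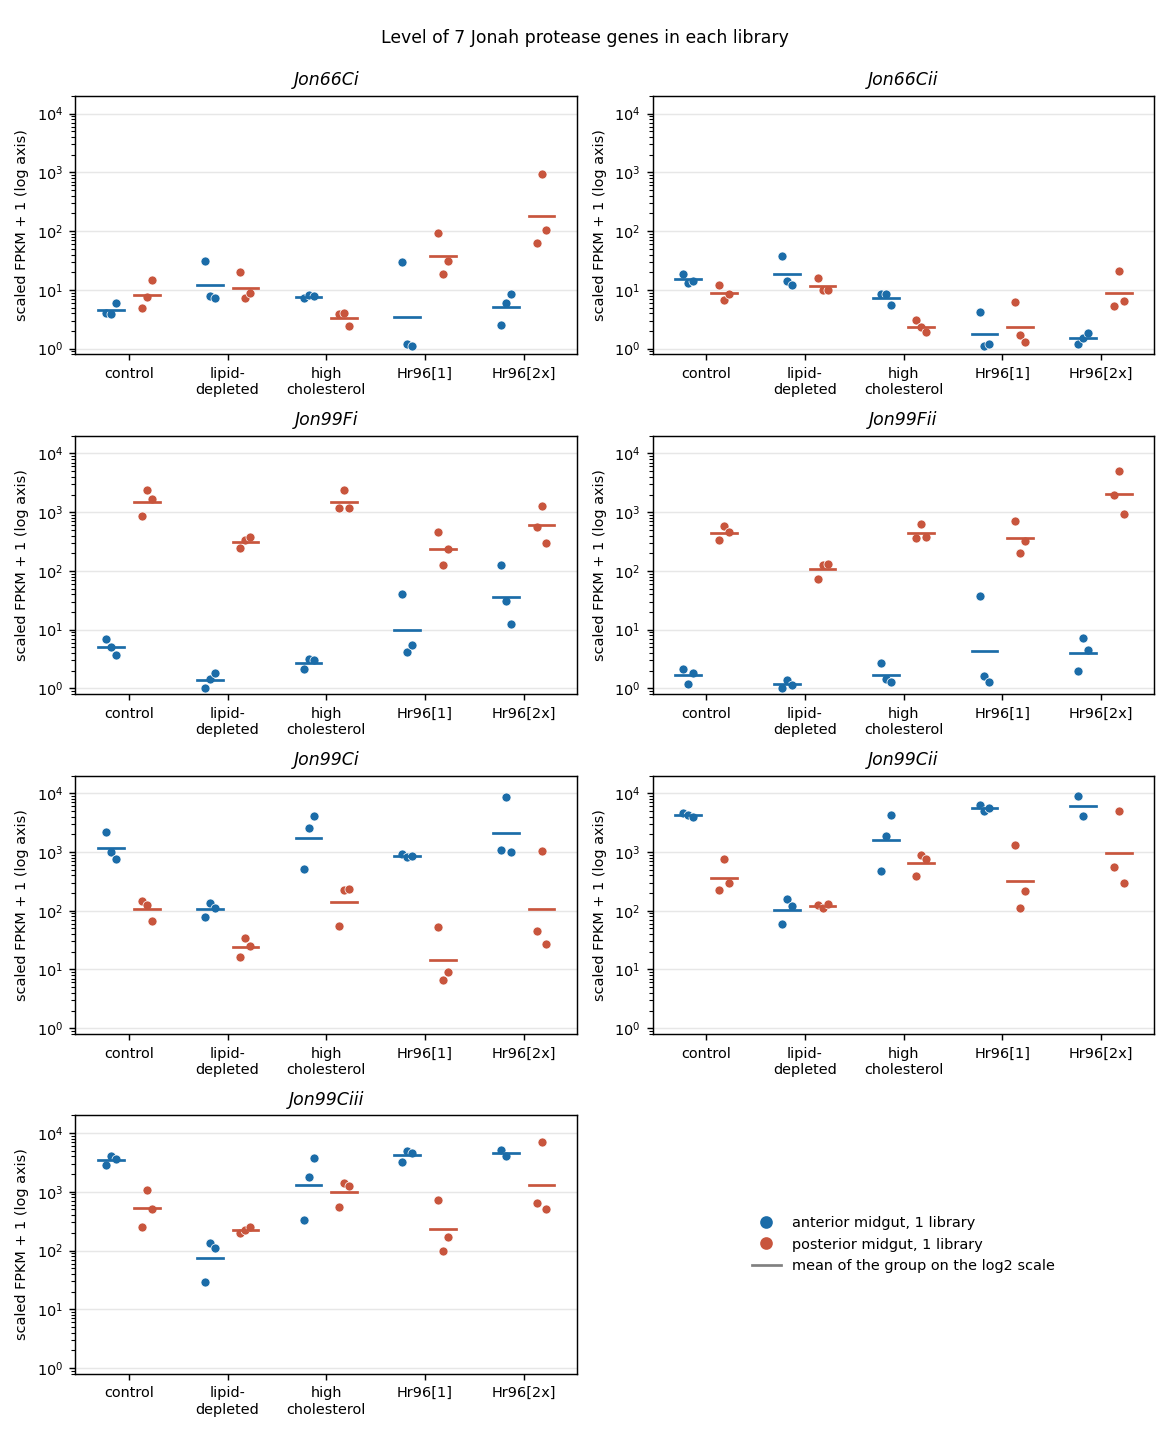
Scaled FPKM + 1 of the 7 genes on a log axis, by condition, with 1 point per library (anterior blue, posterior red) and a bar at the mean of the group on the log2 scale; the 2 failed estimates of anterior Hr96[2x] replicate 2 are left out. Jon99Fi and Jon99Fii sit in the posterior libraries, Jon99Ci, Jon99Cii and Jon99Ciii have higher group means in the anterior on the control diet, and the Jon66C pair is low except Jon66Ci in the posterior of the Hr96 strains.

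Within a region few members were called for a diet or strain. SEs of these differences ran from 0.563 to 1.07, so a missed call does not show that a level stayed the same. The median difference of the 7 on the lipid-depleted diet was -1.87 in the anterior and -1.59 in the posterior, beside -0.02 over all genes in each. In the anterior midgut 0 of 5 members were called on the lipid-depleted diet by limma (2 at an unadjusted p under 0.05, and 3.17% of all genes called), while both genes of the fit with the missing value fell (3.34%). With high cholesterol 0 of 5 were called (0 at an unadjusted p under 0.05, 3.52% of all genes). In Hr96[1] 1 of 5 fell (23.9%), and in Hr96[2x] 1 rose and 1 fell (18.4%). In the posterior midgut 0 of 5 were called on the lipid-depleted diet (2 at an unadjusted p under 0.05, 3.83%) and 0 of 5 with high cholesterol (1 at an unadjusted p under 0.05, 0.876%). In Hr96[1] 2 of 5 fell (12.9%), and in Hr96[2x] 1 rose (11.2%). These 4 comparisons in a region share the same 3 control libraries. Tests of whether a response differed between the regions called 0 of 5 for the lipid-depleted diet, high cholesterol, Hr96[1] and Hr96[2x] (0, 0, 1 and 3 at an unadjusted p under 0.05), where 0.576%, 0.0240%, 0.408% and 0.360% of all genes were called.

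Jon99Fi in the posterior midgut was at 873, 2401 and 1652 in the 3 control libraries and at 6.06, 4.1 and 2.66 in the anterior ones. The lowest posterior library was over 100 times the highest anterior one. The difference was 8.22 ± 0.75 (log2, SE; adjusted p = 2.18e-08). In the other wild-type groups the posterior libraries read 243, 339.5 and 374 on the lipid-depleted diet and 1166, 2383 and 1196 with high cholesterol. The anterior libraries read 0, 0.47 and 0.819, and 1.16, 2.12 and 2.06. Jon99Fi was thus barely detected in the anterior of wild-type flies, and the differences between regions were 7.83 (adjusted p = 1.48e-07) and 9.09 (adjusted p = 3.78e-09).

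In the strains Jon99Fi was less far apart between regions. Hr96[1] had 454, 124 and 232 in the posterior and 39.1, 3.21 and 4.46 in the anterior. Hr96[2x] had 564, 1281 and 297 in the posterior and 124, 29.8 and 11.7 in the anterior. The posterior stayed above the anterior in both, by 4.60 (adjusted p = 1.02e-04) and 4.03 (adjusted p = 3.41e-04), the former not called with the 2 compared groups fitted alone (0.0574). A test of the response by region gave -4.18 ± 1.06 for Hr96[2x], with an adjusted p of 0.107 (0.0221 without anterior Hr96[2x] replicate 3), and -3.61 ± 1.06 for Hr96[1], with an adjusted p of 0.173.

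Against the control diet within a region, Jon99Fi fell in the posterior of Hr96[1], by 2.68 ± 0.75 (adjusted p = 0.0201), with no overlap between groups. The call was lost without posterior control replicate 2 or 3 or without Hr96[1] replicate 2 or 3 (adjusted p up to 0.0895), with the 2 groups fitted alone (0.0784) and with replicates 2 and 3 averaged (0.233). In that comparison mex1 and Myo31DF, of 5 enterocyte markers, were also called lower (sum 1241 to 1356, against 1589 to 2056 in control). Of 6 visceral muscle markers Tm2 was called higher and all 6 had an unadjusted p under 0.05, with sums of 621 to 790.2 against 273 to 343. Their part in the fall was not tested. Jon99Fi rose in the anterior of Hr96[2x], by 2.85 ± 0.75 (adjusted p = 0.0103), again with no overlap. Without anterior Hr96[2x] replicate 1 that difference was 1.96 (adjusted p = 0.0881), and the call was also lost with the 2 groups fitted alone (0.0933) and with replicates 2 and 3 averaged (0.0643). In that library cad was at 1.35, against 0.0367 and 0.207 in the other two, and Jon99Fii, the posterior neighbour of Jon99Fi, was at 0.947, below its 6.17 and 3.45 there. The part of posterior tissue in the result was not tested. The 3 posterior lipid-depleted libraries lay below all 3 controls, a difference of -2.27 ± 0.75 that missed the threshold (adjusted p = 0.104), and with high cholesterol the difference was -0.02 ± 0.75. In the anterior on the lipid-depleted diet Jon99Fi differed by -1.87 ± 0.75, not called (adjusted p = 0.22, and 0.0302 with a pseudocount of 0.1).

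Jon99Fii followed the same division between the regions at lower wild-type levels. On the control diet its posterior libraries were at 334, 581 and 451 and the anterior ones at 1.11, 0.178 and 0.854. The lipid-depleted diet gave 71.1, 126 and 129 in the posterior and 0, 0.415 and 0.138 in the anterior, and high cholesterol gave 367, 637 and 381 against 1.69, 0.459 and 0.277. Posterior and anterior never overlapped, and the differences were 8.06 ± 0.842 (adjusted p = 1.64e-07), 6.50 (adjusted p = 9.34e-06) and 8.03 (adjusted p = 1.37e-07).

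In Hr96[1] Jon99Fii read 701, 203 and 326 in the posterior. The anterior read 37, 0.598 and 0.265, the first being the library with cad at 10.9, in which Jon99Fi (39.1) and Jon66Ci (29.3) were also the highest of their group. Markers of other tissues were high in that library too. The Malpighian tubule genes Uro and salt were at 160.2 and 52.1, against at most 0.117 in the other two, the ovarian gene Cp36 was at 39.7, against at most 0.0649, and Vha100-4 of the copper cell region was at 53.6, against 12.3 and 13.2. Their part in the member values of that library was not tested. In Hr96[2x] the posterior libraries reached 1942, 5014 and 917, all above the 12 other posterior libraries, while the anterior ones stayed at 0.947, 6.17 and 3.45. Differences between regions were 6.41 in Hr96[1] (adjusted p = 6.94e-06, but 0.0612 with the 2 groups fitted alone) and 9.03 in Hr96[2x] (adjusted p = 2.28e-08). Against the control group the posterior of Hr96[2x] was 2.22 ± 0.842 higher, which was not called (adjusted p = 0.0968, and 0.0174 with a pseudocount of 5). The posterior of Hr96[1] differed by -0.30 and that of the lipid-depleted diet by -2.07 (adjusted p = 0.219), the latter with no overlap. The anterior of Hr96[1] was 1.35 above control with replicate 1 and 0.23 below it without, neither called.

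**Figure D2:**
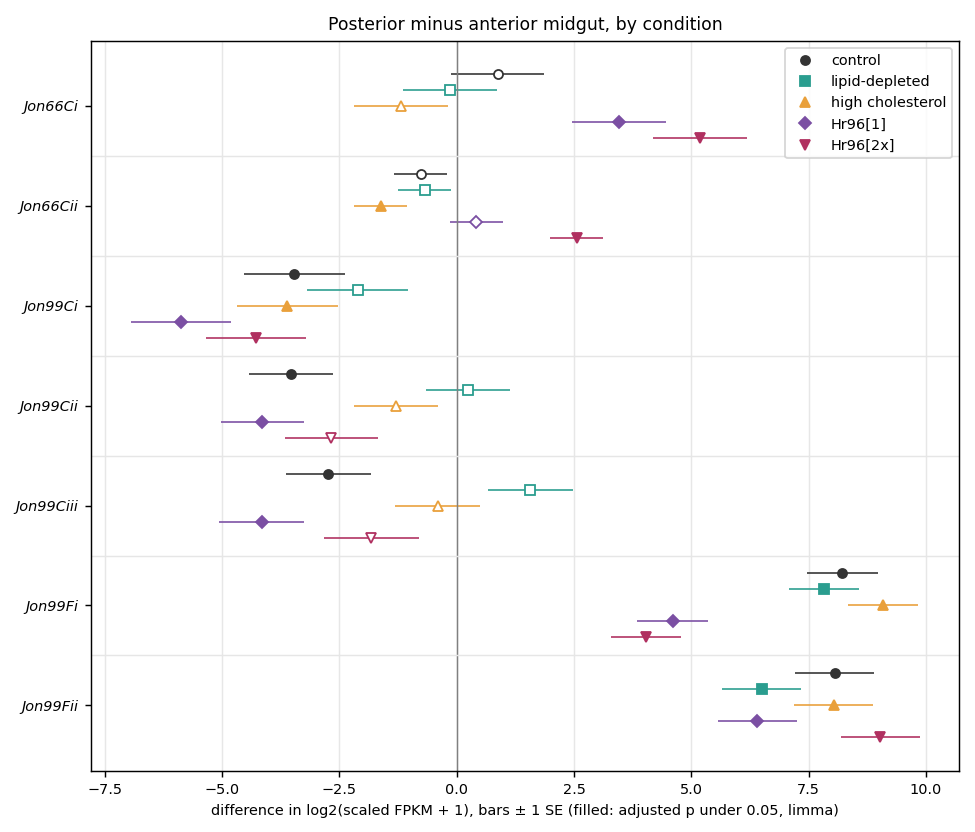
Posterior minus anterior midgut in log2(scaled FPKM + 1) for each gene (rows) and condition (colours), with bars of ± 1 SE and filled symbols at an adjusted p under 0.05. The Jon99F pair lies between 4.03 and 9.09 in all 5 conditions and Jon99Ci between -5.88 and -2.11. Jon66Ci is called higher in the posterior only in the 2 Hr96 strains, and Jon66Cii only in Hr96[2x].

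The balance within the Jon99F pair separated the strains from wild type in the posterior midgut. A ratio within a library does not depend on the scaling between libraries. Jon99Fi per Jon99Fii was 2.62, 4.13 and 3.66 on the control diet, 3.42, 2.7 and 2.91 on the lipid-depleted diet and 3.18, 3.74 and 3.14 with high cholesterol. In Hr96[1] the ratio was 0.648, 0.61 and 0.713, and in Hr96[2x] 0.291, 0.255 and 0.324. All 9 wild-type libraries held more Jon99Fi than Jon99Fii, all 6 libraries of the strains held less, and the strains did not overlap with each other. Jon99Fi made up 77.1% ± 4.26 (SD, n = 3) of the pair on the control diet, 39.6% ± 1.89 in Hr96[1] and 22.4% ± 2.06 in Hr96[2x]. These ratios are given as a description, with no test. The sum of the pair was higher in the posterior in every condition, by 8.41 on the control diet and by 8.09, 9.08, 5.54 and 5.99 in the other conditions (adjusted p at most 2.52e-05). Against the control group it was called only in the anterior of Hr96[2x], 2.87 higher (adjusted p = 0.0154), among the 8 comparisons of a diet or strain.

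Jon99Cii was the most abundant member in the anterior midgut of wild type on the control diet, at 4559.7, 4298 and 3909. Its neighbour Jon99Ciii was at 2831, 4106 and 3616, and Jon99Ci at 2148, 992 and 749. All posterior control libraries were lower, with Jon99Cii at 222, 749.6 and 296, Jon99Ciii at 253, 1077 and 517 and Jon99Ci at 144, 124 and 64.8. The posterior fell below the anterior by 3.53 ± 0.892 for Jon99Cii (adjusted p = 0.00775), by 2.74 ± 0.906 for Jon99Ciii (adjusted p = 0.0446) and by 3.46 ± 1.07 for Jon99Ci (adjusted p = 0.029). Leaving out single libraries raised the adjusted p of Jon99Ciii to as much as 0.173 (not called without any control library but posterior replicate 2) and that of Jon99Ci to 0.115 (not called without anterior replicate 1 or 2 or posterior replicate 2 or 3). Jon99Ciii also missed the threshold with FPKM as deposited (adjusted p = 0.0568) and with quantile normalization (0.0723), and Jon99Ci with no filter on low values (0.0541). With replicates 2 and 3 averaged neither was called (0.157 and 0.0671). Jon99Cii was called without each library in turn. With the failed estimates kept at 0 instead of missing, neither Jon99Cii (0.285) nor Jon99Ciii (0.428) was called.

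On the lipid-depleted diet the Jon99C triplet was low in the anterior midgut. Jon99Cii read 58.5, 157 and 118 there, and all 3 libraries lay far below the 3909 of the lowest control. Jon99Ciii read 28.4, 133 and 110.2. Both fell, by 5.36 ± 0.892 (adjusted p = 8.30e-04) and 5.52 ± 0.906 (adjusted p = 7.31e-04), and both were called without each library in turn (adjusted p up to 0.0082 and 0.00832). With the failed estimates kept at 0 instead of missing, neither was called (0.164 and 0.137). Jon99Ci, at 77.9, 132 and 110.3, lay below all controls too, a difference of -3.47 ± 1.07 that was not called (adjusted p = 0.0803, and 0.0481 with quantile normalization). The sum of the 3 fell by 4.98 ± 0.872 (adjusted p = 0.00153).

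The posterior libraries on that diet were lower than control as well but by less. Jon99Cii read 124, 112 and 128, Jon99Ciii 199.8, 223 and 252, and Jon99Ci 15.4, 33.6 and 24.4, with no overlap with control for any of them. None was called, at differences of -1.59, -1.22 and -2.12 (adjusted p of 0.431, 0.578 and 0.352). Whether the fall differed between regions was tested and not called, at 3.77 ± 1.26 for Jon99Cii (adjusted p = 0.36) and 4.30 ± 1.28 for Jon99Ciii (adjusted p = 0.214), though both passed with the 4 compared groups fitted alone (0.0201 and 0.0485). On this diet no posterior minus anterior difference of the triplet was called in the main fits. Jon99Ciii libraries were higher in the posterior without overlap (1.57 ± 0.906, adjusted p = 0.288) and Jon99Cii overlapped (0.24, adjusted p = 0.917). Jon99Ci libraries were lower in the posterior without overlap, at -2.11 ± 1.07, not called at an adjusted p of 0.215 but called at 0.00552 with same-numbered anterior and posterior libraries taken as pairs. In the anterior midgut limma called 0 of 5 enterocyte markers on this diet (2 at an unadjusted p under 0.05), and their sum was 1269 to 1930.5 against 1645 to 2326 on the control diet. Of 6 visceral muscle markers it called none, but all 6 had an unadjusted p under 0.05 with a median of -0.942, and their sum was 86.3 to 103 against 177 to 228. Of 4 enteroendocrine markers AstA was called higher (0.625 to 7.87, against 0.11 to 0.529), with sums of 68.4 to 82.9 against 41.2 to 88.2. The part of these cells in the fall was not tested. In bulk tissue, fewer cells that express a gene and less RNA per cell cannot be told apart.

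With high cholesterol the anterior libraries spread widely. Jon99Ci read 509, 2579 and 4019, Jon99Cii 479, 1887 and 4314, and Jon99Ciii 329, 1763 and 3802. Replicate 1 was the lowest for all 3 genes, so differences from control were wide, at 0.57 ± 1.07, -1.43 ± 0.892 and -1.42 ± 0.906, and none was called (adjusted p of 0.87, 0.47 and 0.488). In the posterior Jon99Ci read 53.8, 227 and 231, Jon99Cii 382, 896 and 754, and Jon99Ciii 543, 1411 and 1250.3, with replicate 1 again lowest. Jon99Ci was called lower in the posterior than in the anterior (by 3.61 ± 1.07, adjusted p = 0.0194), which did not hold without anterior replicate 2 or 3 or posterior replicate 1 (adjusted p up to 0.117), nor with the 2 groups fitted alone (0.071) or replicates 2 and 3 averaged (0.0661). Jon99Cii and Jon99Ciii were not called (-1.30 and -0.40).

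Hr96[1] kept the triplet high in the anterior midgut. Jon99Cii read 6243, 5069 and 5552, Jon99Ciii 3263, 4868 and 4531, and Jon99Ci 912, 825 and 845. Differences from control were 0.40, 0.26 and -0.44, with adjusted p from 0.781 to 0.869. The posterior held 1333, 111 and 213 for Jon99Cii, 732, 98.9 and 172 for Jon99Ciii and 51.8, 5.54 and 8.06 for Jon99Ci, replicate 1 being the highest each time. The Jon66C and Jon99F pairs were highest in that library too. Jon25Bii, an anterior gene on the control diet, was at 669 there, against 12.4 and 17.4 in replicates 2 and 3. Summed markers of the Malpighian tubule were at 264 (32 and 41.3), of fat body at 473 (11.1 and 20.3) and of ovary at 51.6 (3.41 and 8.06). Their part in the values of that library was not tested. The posterior minus anterior differences were -4.14 ± 0.892 (Jon99Cii, adjusted p = 0.00207), -4.16 ± 0.906 (Jon99Ciii, adjusted p = 0.00232) and -5.88 ± 1.07 (Jon99Ci, adjusted p = 3.68e-04), and all 3 were called without each library in turn. With the 2 groups fitted alone Jon99Cii was not called (0.0609), and with replicates 2 and 3 averaged neither Jon99Cii (0.0529) nor Jon99Ciii (0.0811) was. Both were also lost with the failed estimates kept at 0 (0.187 and 0.173). Jon99Ci in the posterior lay below control without overlap, with a difference of -2.86 ± 1.07 (adjusted p = 0.0828, and 0.0278 without posterior Hr96[1] replicate 1).

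In Hr96[2x] the anterior libraries were at 8818 and 4092 for Jon99Cii and 5164 and 4129 for Jon99Ciii, with no value in replicate 2. In that replicate Jon99Ci was at 8778, against 1098 and 988 in the other two. The posterior read 557, 5039 and 297 for Jon99Cii, 641, 6966 and 502 for Jon99Ciii and 44.4, 1028 and 26.6 for Jon99Ci. Replicate 2 was thus the highest in both regions wherever it had a value. Jon99Ci was called lower in the posterior (by 4.28 ± 1.07, adjusted p = 0.0054) although 1028 overlaps the anterior libraries, and was not called with the 2 groups fitted alone (0.156). Jon99Cii and Jon99Ciii were lower by 2.67 and 1.82, not called (adjusted p of 0.0662 and 0.246). Without posterior Hr96[2x] replicate 2 they were called (adjusted p of 0.00437 and 0.0295), and in pairs of the same number, where the missing value drops replicate 2, the differences were -3.88 (adjusted p = 0.00134) and -3.02 (adjusted p = 0.00878). Against control, differences of the triplet in Hr96[2x] ran from 0.04 to 1.36 over both regions, none called.

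**Figure D3:**
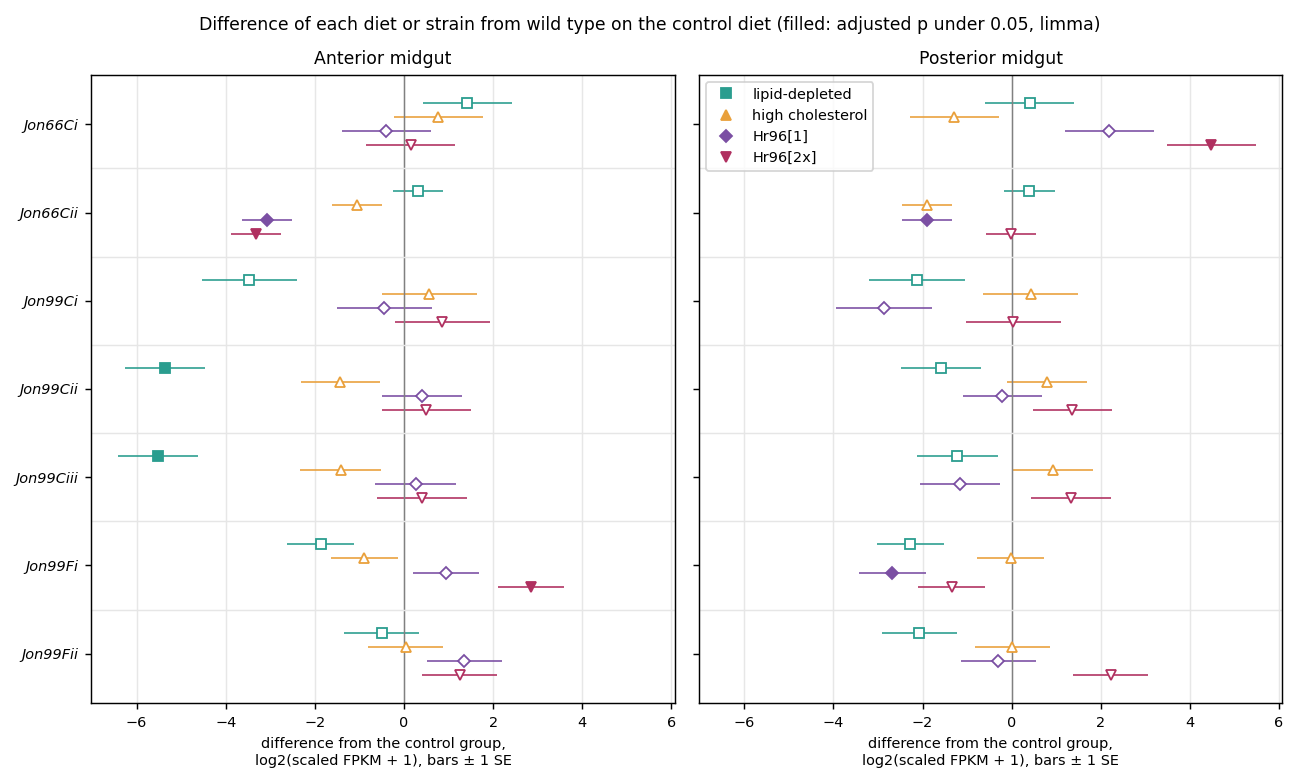
Difference of each diet or strain from wild type on the control diet in log2(scaled FPKM + 1), for the anterior (left) and the posterior midgut (right), with bars of ± 1 SE and filled symbols at an adjusted p under 0.05. The largest falls are Jon99Cii (-5.36) and Jon99Ciii (-5.52) in the anterior on the lipid-depleted diet and the largest rise is Jon66Ci (4.48) in the posterior of Hr96[2x].

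Ratios within the triplet also differed by region and condition. Jon99Ciii per Jon99Cii was 0.486 to 0.956 in the 9 anterior wild-type libraries and 1.14 to 1.99 in the 9 posterior ones, with no overlap. In Hr96[1] it was 0.523 to 0.96 in the anterior and 0.549 to 0.888 in the posterior, so the posterior libraries of that strain lay below those of wild type, while the posterior of Hr96[2x] had 1.15 to 1.69. Jon99Ci per Jon99Cii in the anterior was 0.471, 0.231 and 0.192 on the control diet. It was 1.33, 0.843 and 0.938 on the lipid-depleted diet and 1.06, 1.37 and 0.932 with high cholesterol, above control in all 6 libraries, and 0.146, 0.163 and 0.152 in Hr96[1].

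Jon66Ci and Jon66Cii were expressed at low levels in wild type. Jon66Ci read 3, 2.89 and 4.97 in the anterior on the control diet, 30.3, 6.84 and 6.28 on the lipid-depleted diet and 6.27, 7.09 and 6.79 with high cholesterol. In the posterior it read 4, 6.63 and 13.7, then 19.1, 6.41 and 7.83, and 2.88, 3.07 and 1.43. Regions differed by 0.87, -0.15 and -1.19 and neither diet was called against control in either region (adjusted p from 0.619 to 0.907).

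Jon66Ci was higher in the posterior midgut of Hr96[2x] than in any wild-type library. Hr96[2x] had 62.6, 942 and 103 there, and Hr96[1] had 91.5, 17.4 and 30.4, so that all 6 libraries were above the 13.7 of the highest posterior control. Hr96[1] overlapped the posterior on the lipid-depleted diet, which reached 19.1. Jon66Ci rose by 4.48 ± 1 in Hr96[2x] (adjusted p = 0.00411), and without any 1 library the rise was at least 3.30 (adjusted p up to 0.0408). The call was lost with the 2 compared groups fitted alone (adjusted p = 0.0623) and with replicates 2 and 3 averaged (0.094). In the same comparison 3 of 4 enteroendocrine markers were called higher (pros, AstC and Tk), and the sum of the 4 was 680.5 to 969 against 142 to 255 in control. Of 6 fat body markers 4 were tested and none called, but all 4 had an unadjusted p under 0.05 with a median of -2.73. The sum of the 6 was 23.6 to 66.9, against 1892, 101 and 158 in control replicates 1, 2 and 3. The part of these cells in the rise was not tested. In Hr96[1] the difference was 2.19 ± 1, not called (adjusted p = 0.159). Anterior values were 1.52, 5 and 7.45 in Hr96[2x] and 29.3, 0.2 and 0.103 in Hr96[1]. The posterior was above the anterior by 5.19 ± 1 in Hr96[2x] (adjusted p = 5.00e-04) and by 3.46 ± 1 in Hr96[1] (adjusted p = 0.0205). The latter rests on few libraries, being lost without anterior Hr96[1] replicate 2 or 3 or posterior replicate 1 (adjusted p up to 0.149), with a pseudocount of 5 (0.0672), with the 2 groups fitted alone (0.287) and with replicates 2 and 3 averaged (0.279), and without anterior replicate 1, the library with high cad, it was 5.03.

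Jon66Cii fell in the anterior midgut of both strains. Its anterior libraries on the control diet were at 17.9, 12.1 and 13, against 3.22, 0.102 and 0.214 in Hr96[1] and 0.218, 0.518 and 0.839 in Hr96[2x]. The groups did not overlap, and the differences were -3.08 ± 0.563 (adjusted p = 4.19e-04) and -3.33 ± 0.563 (adjusted p = 2.22e-04), both called without each library in turn. The sum with Jon66Ci was not called in either, at -2.28 ± 0.962 (adjusted p = 0.0883) and -1.77 ± 0.962 (adjusted p = 0.221). Of 6 visceral muscle markers 3 were called higher in the anterior of Hr96[1] (sum 386 to 469.5, against 177 to 228) and none in that of Hr96[2x] (0 at an unadjusted p under 0.05 by limma, sum 118 to 367), and their part was not tested. The posterior control libraries were at 11.2, 5.86 and 7.39 and those of Hr96[1] at 5.11, 0.7 and 0.289, a fall of 1.90 ± 0.563 (adjusted p = 0.027). That call was lost without posterior control replicate 1 or 3, without Hr96[1] replicate 2 or 3 (adjusted p up to 0.166), with a pseudocount of 5 (0.0678), with the 2 groups fitted alone (0.167) and with replicates 2 and 3 averaged (0.251). The posterior of Hr96[2x], at 4.22, 19.8 and 5.38, overlapped control (-0.01 ± 0.563). Posterior exceeded anterior in Hr96[2x] by 2.56 ± 0.563 (adjusted p = 0.00185, and 0.0544 with replicates 2 and 3 averaged). The difference of the Hr96[2x] response between regions, 3.32 ± 0.796, missed the threshold (adjusted p = 0.0787, and 0.0432 with quantile normalization).

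On the diets Jon66Cii read 36.4, 13.4 and 11.3 in the anterior and 15.1, 8.97 and 9.06 in the posterior without lipids, overlapping control. High cholesterol gave 7.59, 7.38 and 4.44 in the anterior and 2.06, 1.32 and 0.896 in the posterior, below control in each region without overlap. Neither difference was called, at -1.05 ± 0.563 (adjusted p = 0.378) and -1.90 ± 0.563 (adjusted p = 0.133). The posterior was called lower than the anterior with high cholesterol, by 1.62 (adjusted p = 0.0492), but not without any 1 of the 6 libraries (0.0602 to 0.149). That call was also lost with FPKM as deposited (0.103), other pseudocounts (0.095 and 0.103) and no filter (0.0876).

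The balance of the pair on 3L also differed between genotypes. Jon66Ci per Jon66Cii was 0.358 to 2.32 in the 9 posterior wild-type libraries. In the posterior of Hr96[1] it was 17.9, 24.8 and 105, and in that of Hr96[2x] 14.8, 47.5 and 19.1, with no overlap with wild type. In the anterior it was 0.168 to 1.53 in wild type, 6.96, 9.66 and 8.88 in Hr96[2x] and 9.09, 1.96 and 0.483 in Hr96[1]. Many of these ratios divide by a Jon66Cii level under 1 and are imprecise. The sum of the pair does not depend on how reads were divided between these 2 genes, though other ways of counting shared reads could change it. It was 3.51 ± 0.962 higher than control in the posterior of Hr96[2x] (adjusted p = 0.0176). Most of that sum was Jon66Ci, with group means of 369 for Jon66Ci and 9.8 for Jon66Cii.

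**Figure D4:**
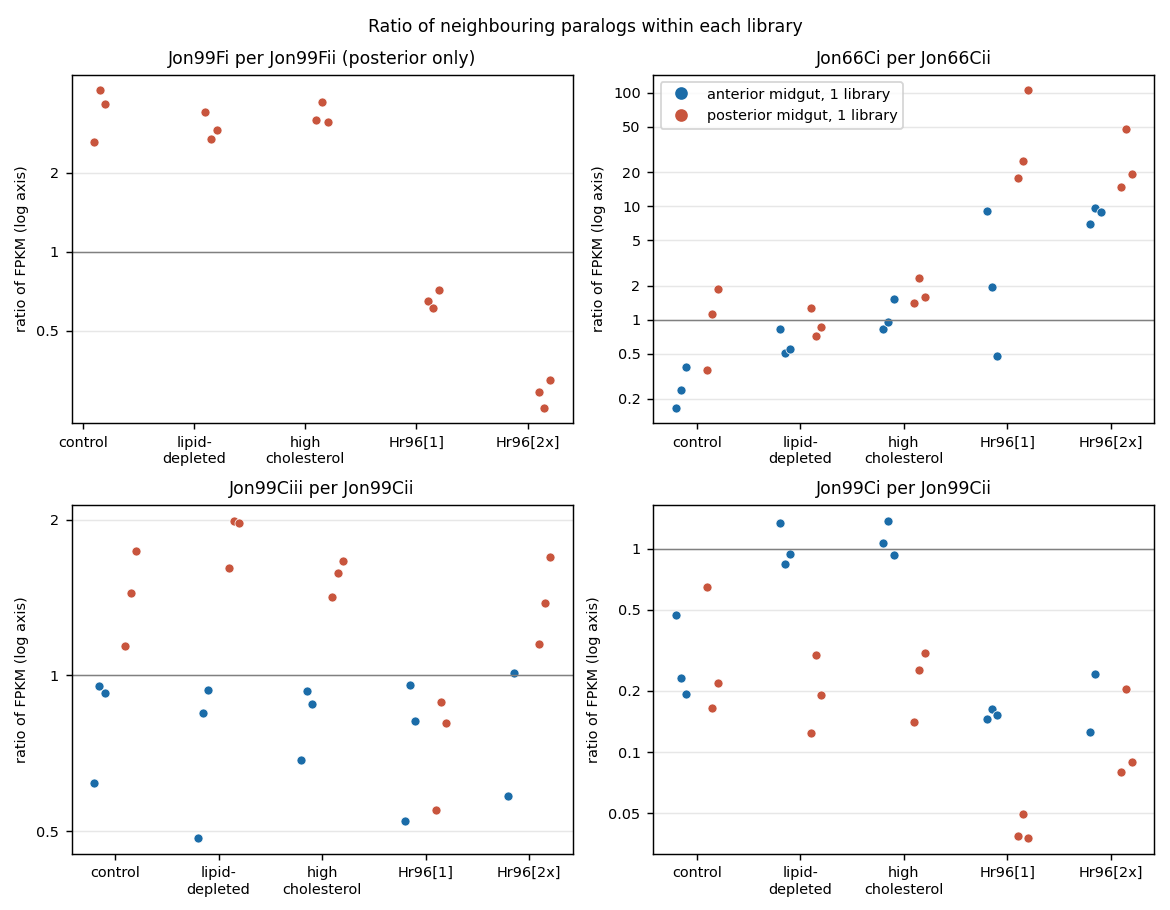
Ratio of the FPKM of neighbouring paralogs within each library on a log axis, by condition, with 1 point per library (anterior blue, posterior red) and a line at equal levels. Jon99Fi per Jon99Fii lies between 2.62 and 4.13 in posterior wild-type libraries and between 0.255 and 0.713 in those of the Hr96 strains, and Jon66Ci per Jon66Cii is 14.8 to 105 in the latter.

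Ordered by mean level, the groups formed few steps. For Jon99Fii the posterior of Hr96[2x] (2625 ± 2132, SD, n = 3) stood above the posterior of high cholesterol (462 ± 152), control (455 ± 124) and Hr96[1] (410.0 ± 259), which overlapped, then came the posterior on the lipid-depleted diet (108 ± 32.4) and, below a further gap, all 5 anterior groups. For Jon99Fi the order ran without a gap from the 5 posterior groups through the anterior of both strains to anterior control (4.27 ± 1.71). Below it, anterior high cholesterol (1.78 ± 0.538) and then anterior lipid-depleted (0.43 ± 0.411) each stood apart without overlap. For Jon99Cii the anterior of Hr96[1] (5621 ± 590.3) stood above anterior control (4255 ± 328), and both lipid-depleted groups (121 ± 8.23 and 111 ± 49.4) stood below all others except that the posterior of Hr96[1] reached down to 111. The anterior lipid-depleted group of Jon99Ciii (90.4 ± 54.9) was the lowest and did not overlap its neighbour in the order. For Jon66Ci and Jon66Cii every group overlapped the next, so no order is given.

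Together the 7 genes made up 0.0193% to 2.14% of the summed FPKM of a library. Failed estimates count as 0 in that sum. Abundant genes such as Jon65Aiv failed in anterior Hr96[1] replicates 2 and 3 and anterior Hr96[2x] replicate 1. The abundant betaTry is also listed at 0 in anterior high-cholesterol replicate 3 and anterior Hr96[2x] replicate 3. The shares in all these libraries are overstated. Among wild-type libraries the share ran from 0.0193% to 0.055% in the anterior on the lipid-depleted diet and from 0.845% to 0.935% on the control diet. The triplet held 71.2% to 100% of the sum of the 7 in anterior libraries. In posterior libraries the Jon99F pair held 31% to 70% of it and the triplet 29.3% to 64.2%. The Jon66C pair held at most 5.05%, except for 28.8% in anterior lipid-depleted replicate 1, where the other members were low.

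**Figure D5:**
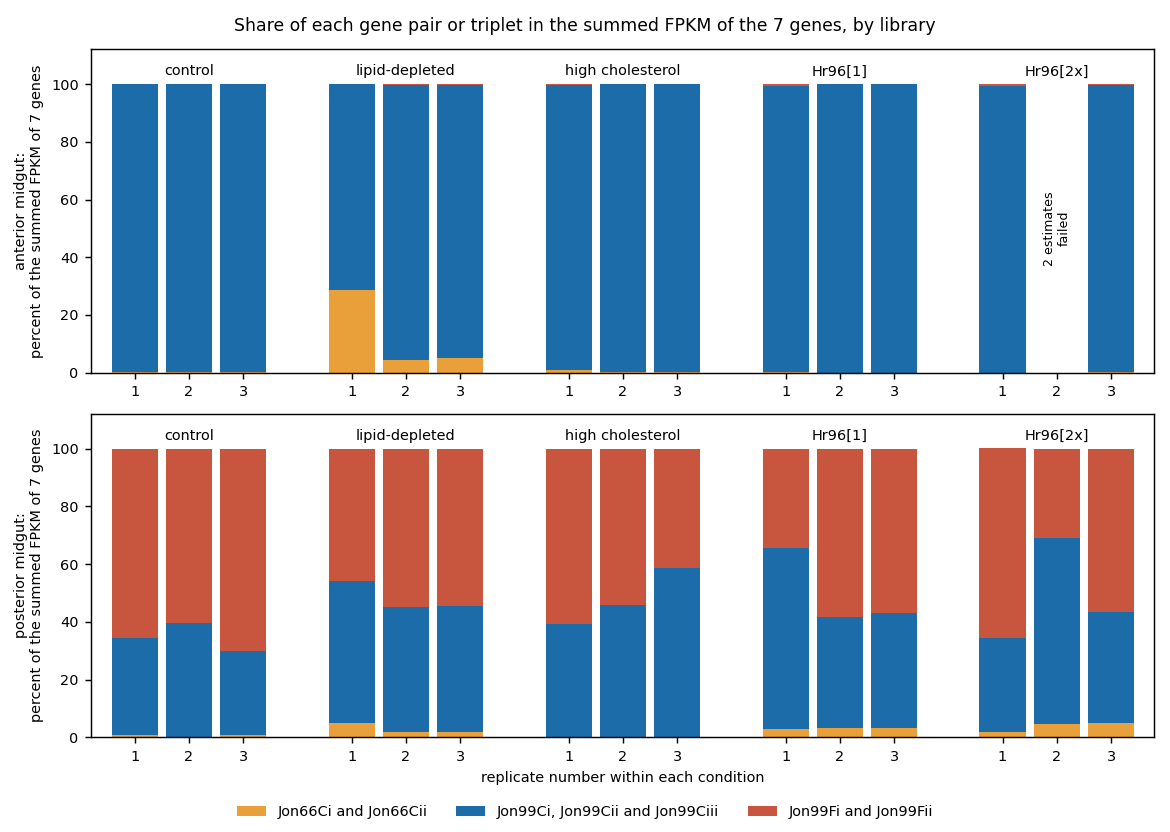
Percent of the summed FPKM of the 7 genes held by each cluster, with 1 bar per library (anterior above, posterior below); anterior Hr96[2x] replicate 2 has no bar because 2 estimates failed. Anterior bars are nearly all Jon99C, and posterior bars divide between the Jon99F pair (31% to 70%) and the triplet (29.3% to 64.2%).

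Other digestive serine endopeptidases of the midgut divided by region as well. Of 10 further Jonah genes 7 were tested, and on the control diet 3 were higher in the posterior and 3 in the anterior, with a median of 1.52 beside 0.00 for all genes. Of all tested genes 14.7% were called in that comparison. Jon65Ai rose by 7.56, Jon65Aii by 6.02 and Jon44E by 5.11, each less than either gene of the Jon99F pair. Jon25Bii, Jon25Bi and Jon74E had differences of -9.36, -9.26 and -9.21, further than any member of the triplet. Trypsins, which cut after basic residues, had 10 of 16 tested, with 7 higher in the posterior, led by iotaTry (7.72), zetaTry (7.58) and Ser8 (6.22), and 1 lower, epsilonTry (-10.01). These counts leave out abundant genes with a failed estimate in some library, among them Jon65Aiii, Jon65Aiv, yip7, alphaTry and betaTry. On the control diet each of those had a higher mean in the anterior, such as 45606 against 180.4 for betaTry. The 16 trypsins summed to 68357 to 101188 in anterior control libraries and 3890.3 to 5193 in posterior ones. The 10 Jonah genes summed to 74134 to 100053 and 5494 to 8051. On the lipid-depleted diet 0 of the 7 tested Jonah genes outside the members were called by limma in the anterior (1 at an unadjusted p under 0.05) and 1 fell in the posterior. Of the 10 trypsins 2 rose in the anterior, and 1 rose and 3 fell in the posterior. With high cholesterol 1 further Jonah gene rose in the anterior. In the anterior of Hr96[1] 1 rose, and of the trypsins 3 rose and 1 fell. In the anterior of Hr96[2x] 1 Jonah gene fell, and of the trypsins 4 rose and 1 fell. The posterior of Hr96[1] had 1 called trypsin, which rose, and that of Hr96[2x] 1 that rose beside 1 Jonah gene that fell. In the order lipid-depleted, high cholesterol, Hr96[1] and Hr96[2x], 3.17%, 3.52%, 23.9% and 18.4% of all tested genes were called in the anterior. In the posterior these shares were 3.83%, 0.876%, 12.9% and 11.2%. Single called genes of a list in a strain do not stand out from these shares.

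Across the 10 group means of log2(scaled FPKM + 1), pairs within a cluster ran together to different degrees. Pearson's r was 0.971 for Jon99Cii with Jon99Ciii, 0.942 for Jon99Fi with Jon99Fii, 0.844 for Jon99Ci with Jon99Cii and 0.249 for Jon66Ci with Jon66Cii. Between clusters the highest was 0.564, for Jon66Ci with Jon99Fii. The genes most like each member outside the 7 were CG17571 (0.990) and Jon65Ai (0.989) for Jon99Fii, CG8562 (0.982) and CG31041 (0.977) for Jon99Fi, Papst2 (0.976) and ArfGAP1 (0.972) for Jon99Ci, CG2061 (0.943) and mbm (0.922) for Jon99Cii, CG2061 (0.901) and CG7839 (0.898) for Jon99Ciii, and CG5726 (0.959) and LysX (0.936) for Jon66Cii. For Jon66Ci they were a small nucleolar RNA, snoRNA:Psi18S-640e (0.924), too short for this kind of library to measure well, and CG6621 (0.869). These are descriptions over 10 points that share 2 regions, so a large difference between regions alone gives a high r with the Jon99F pair, and by Spearman's rho 4 of these 14 stayed among the 2 most similar.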

How the data were processed

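Each of the 30 deposited tables gives the authors' FPKM per gene, its confidence limits and a status flag, as the file headers name them. The submitters' processing notes list the tools bcl2fastq 2.17.1.14, TopHat2 2.1.1, Bowtie2 2.2.9 and Cufflinks 2.2.1, the genome dm6 and the annotation BDGP6. The kit named in the labels keeps no strand information. All 118 estimates flagged as high-data are listed at 0.

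Genes whose estimate failed in any library (103) were not fitted. Libraries were divided by median-of-ratios factors over 8584 genes. The 8335 genes at a mean of 1 scaled FPKM or more were fitted with limma 3.58.1 in R 4.3.3 on log2 values with a pseudocount of 1, as 10 group means (20 residual degrees of freedom, prior variance following the mean), with 2-sided p-values adjusted by Benjamini-Hochberg within a comparison and called under 0.05. The fit was tested on simulated data. Jon99Cii and Jon99Ciii were fitted with the failed value missing, an alternative added after the data were seen. The 7 genes and the lists were chosen with earlier results of these data known.

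Same-numbered anterior and posterior libraries deviated together in the lipid-depleted, Hr96[1] and Hr96[2x] groups (each of 9 correlations over 0.1, from 0.2 to 0.521), so paired values stand beside the results whose call they change. Every called difference of a member is given by name, while some that were not called are left out. The 2 most similar genes of each member are named too. Of the other digestive serine endopeptidases, up to 3 rising and 3 falling between regions on the control diet are named. Members' positions were the same in the tables and in Ensembl release 115. Python 3.11.15 with pandas 2.3.3 and matplotlib 3.10.9 did the rest. Alternatives covered scaling, pseudocount, filter, prior, failed estimates, replicates and the samples fitted. Protein and promoter sequences were not analysed here.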

Additional observations from a re-analysis of the deposited data

How the results depend on the processing

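The direction of every member's difference that was called or at least 1 in log2 was kept under all settings tried, except 3. With the failed estimates kept at 0, the posterior minus anterior difference in Hr96[2x] became 1.51 for Jon99Cii and 2.24 for Jon99Ciii, since the 0 replaces a missing value. In that setting every call of these 2 genes was lost, at the adjusted p given with each result. Without single libraries, Jon99Fii in the anterior of Hr96[1] ranged from -0.23 to 2.23. Counts of members called moved under several settings. With the compared groups fitted alone, 1 member was called between regions in Hr96[1] (4 in the main setting), 1 in the anterior and 1 in the posterior on the lipid-depleted diet (0 and 0), 1 in the anterior of Hr96[2x] (2), and 0 in the posterior of Hr96[1] and of Hr96[2x] (2 and 1). With replicates 2 and 3 averaged, 2 were called between regions with high cholesterol (4), 1 in the anterior of Hr96[2x], and 0 in the posterior of either strain. With members summed into 3 clusters, 1 cluster was called between regions on the lipid-depleted diet (2), 1 with high cholesterol and 2 in Hr96[2x] (5), 1 in the anterior on the lipid-depleted diet, 0 in the anterior of Hr96[1] (1), 1 in that of Hr96[2x] and 0 in the posterior of Hr96[1]. The fit with missing values, which adds 2 members, called 5 between regions on the control diet (3) and 2 in the anterior on the lipid-depleted diet. Quantile normalization called 1 there and 1 in the region difference of Hr96[2x], a pseudocount of 0.1 called 1 in the anterior on the lipid-depleted diet, and a pseudocount of 5 called 1 in the posterior of Hr96[1] and 2 in that of Hr96[2x]. Without single libraries the counts ranged from 0 to 3 in the posterior of Hr96[1], 2 to 3 between regions with high cholesterol, 1 to 2 in the anterior of Hr96[2x] and 0 to 1 for its region difference. The cause was not tested.

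Of 15 pairs of same-numbered anterior and posterior libraries 13 correlated over 0.1 in their deviations (0.0376 to 0.521) and 13 anterior libraries correlated best with their own number, the exceptions being replicate 2 of control and of high cholesterol. Between conditions of a region no comparison had every pair over 0.1. A replicate block over all groups called 1 member, Jon66Cii, in the region difference of Hr96[2x] (adjusted p = 0.0333) and Jon99Cii between regions in Hr96[2x] (0.0475). With the replicate block within condition, which changed no other call of a member than those given with the results, 2267, 2363, 2541, 2281 and 2711 genes were called between regions on the control diet, lipid-depleted diet, high cholesterol, Hr96[1] and Hr96[2x], against 1222, 1028, 1453, 1168 and 1579.

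FPKM as deposited shifted the median region difference of all genes to 0.35 on the control and lipid-depleted diets and to 0.61, 0.62 and 0.65 with high cholesterol, Hr96[1] and Hr96[2x]. It called 1577 genes between regions on the lipid-depleted diet and 4405, 4589 and 4839 in those 3 conditions, and in the anterior 1120 with high cholesterol (293) and 2351 in Hr96[2x] (1532).

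In the order lipid-depleted, high cholesterol, Hr96[1] and Hr96[2x], the main setting called 264, 293, 1993 and 1532 genes in the anterior, 319, 73, 1077 and 934 in the posterior and 48, 2, 34 and 30 in the region difference. With replicates 2 and 3 averaged these were 53, 0, 681 and 584, then 94, 2, 361 and 352, then 8, 0, 5 and 6, and the region comparisons from the control diet on gave 611, 370, 720, 452 and 848. With the compared groups alone the anterior gave 148, 0, 1230 and 847, the posterior of the first 3 gave 185, 4 and 331, the region comparison in Hr96[1] gave 561, and the region difference gave 0 with high cholesterol and 10 in Hr96[2x]. For the region difference of the lipid-depleted diet a pseudocount of 0.1 gave 29. For that of high cholesterol no filter or a replicate block gave 0. For that of Hr96[1] quantile normalization gave 52, a pseudocount of 0.1 gave 16, a filter of 5 gave 12 and no filter 55, and for that of Hr96[2x] a filter of 5 gave 19 and no filter 61.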
